A study of Mus musculus with 12 samples.

Results

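Trem2, Tyrobp, Cst7, Clec7a, Spp1, Gpnmb, Lgals3, Cd9 and Ch25h are 9 genes of the signature called disease-associated microglia, and their RNA was followed through demyelinating injury in young and middle-aged mice. They were taken as a list of known genes of that signature and not by a rule on a value measured here, but earlier results of these data were known when they were chosen. All 9 were found among the 46078 genes counted, and all 9 were among the 15866 that passed the filter on low counts in each comparison. RNA was sequenced from laser-captured ventrolateral white matter of the spinal cord of C57Bl6 mice, in 12 libraries that were each a pool of 5 animals. There were 3 pools in each of 4 groups, namely naïve mice that were young (6 weeks) or middle-aged (8 months) and injured mice of the same 2 ages. The ages are those of the study's methods, since the labels say only young and middle-aged. Injured mice had lysolecithin, a detergent-like lipid that strips myelin, injected into the ventrolateral white matter 72 h before the tissue was taken, and naïve mice were not injected. A sham or saline injection was not among the 4 groups, so the injury comparisons hold the needle and the injection as well as the lipid. No other agent or allele was given for any group, and all animals were perfused with PBS. The replicate unit is the pool, so p-values measure the spread between pools of 5 mice and not between single animals.

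Microglia are the resident macrophages of the central nervous system. Around plaques, dying neurons and damaged myelin they lower the genes of their resting state, such as P2ry12 and Tmem119, and raise a shared set of genes for lipid handling, lysosomes and adhesion. TREM2, a surface receptor for lipids and lipoproteins, signals through the adaptor TYROBP (DAP12) and is needed for much of this set to be induced. Several of the 9 genes are also expressed by macrophages that arise from blood monocytes, and CD9 is expressed by oligodendrocytes and many other cells. In a tissue piece the RNA of these cells is summed: more cells of a type and more RNA per cell cannot be told apart.

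Deposited read counts totalled 9834447 to 12807437 per pool. The libraries held white matter, with the summed CPM (counts scaled to library size, with TMM factors) of 6 oligodendrocyte markers at 86700 to 102000 in young naïve pools and 7930 to 12450 in middle-aged injured pools. The label of microglial genes was set against other markers. A list of 6 markers shared by all myeloid cells (Aif1, Itgam, Spi1, Csf1r, Laptm5, Ptprc) summed to 82.8 to 107.3 CPM in young naïve, 117.9 to 139.1 in middle-aged naïve pools and, after injury, 855 to 896 in young and 818 to 1072 in middle-aged pools. The 10 homeostatic microglia markers summed to 488 to 654, 753 to 1057, 4741 to 5120 and 3890 to 5468 CPM in the same order. The 10 monocyte and recruited macrophage markers summed to 35.5 to 51.0, 44.9 to 85.5, 1615 to 1901 and 1631 to 2009 CPM, and Ccr2 was at 0 counts in every young naïve pool. Fn1 alone averaged 38.2, 51.5, 1044 and 975 CPM in the same order. Of the 10 genes, 6 were at 3 counts or under in every young naïve pool and 3 in every middle-aged naïve pool. Markers of resident and of recruited myeloid cells were thus both detected in injured tissue, and the part of either cell type in the results below was not tested. Summed neutrophil markers reached 27.6 CPM at most and summed lymphocyte markers 3.15 CPM.

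The start sites of 4 members are shown because a motif of a myeloid or stress-response factor stands in them. Promoter sequences of RefSeq (GRCm38.p6), from 250 bases before to 50 after each annotated start, were found for 8 of the 9 members, with 10 promoters, and Tyrobp was not matched. Each line gives the coding strand from 130 bases before to 25 after the start, with the motif in capitals. The windows are chr17:48346271-48346425 for Trem2, chr2:150570285-150570439 for Cst7, chr6:49036388-49036542 for Gpnmb and chr5:104434981-104435135 for Spp1, all on the plus strand.
Trem2: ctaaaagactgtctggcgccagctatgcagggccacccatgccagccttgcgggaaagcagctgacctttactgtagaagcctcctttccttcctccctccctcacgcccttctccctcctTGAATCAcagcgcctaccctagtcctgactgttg
Cst7: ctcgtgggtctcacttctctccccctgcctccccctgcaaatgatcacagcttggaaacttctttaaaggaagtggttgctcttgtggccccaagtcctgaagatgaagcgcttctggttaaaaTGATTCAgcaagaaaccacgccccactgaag
Gpnmb: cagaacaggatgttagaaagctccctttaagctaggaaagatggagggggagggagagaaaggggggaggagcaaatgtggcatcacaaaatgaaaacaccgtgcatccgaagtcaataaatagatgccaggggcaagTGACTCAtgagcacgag
Spp1: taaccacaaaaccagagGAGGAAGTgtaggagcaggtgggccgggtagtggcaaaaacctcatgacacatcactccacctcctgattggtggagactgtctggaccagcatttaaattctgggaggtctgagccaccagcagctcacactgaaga

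The capitals in Trem2, Cst7 and Gpnmb mark the AP-1 letters TGANTCA, and those in Spp1 mark the PU.1 letters GAGGAAGT. PU.1, encoded by Spi1, is the lineage factor of macrophages and microglia, and AP-1 is a dimer of Fos and Jun family proteins. Searched on both strands, TGANTCA stood in 3 of the 10 promoters of the 8 members and in 7.81% of 32851 promoters of the same length. GAGGAAGT stood in 1 of the 10 and in 3.2% of promoters. The first base of the AP-1 letters lay 9 bases before the start in Trem2, 6 before it in Cst7 and 9 after it in Gpnmb, and that of the PU.1 letters 113 bases before the start in Spp1. The E-box letters CACGTG (7.15% of promoters) and the M-box letters TCATGTG (3.77%), which MITF family factors can bind, were in none of the 8 members. A match is a description of letters and not a site shown to be bound.

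The 9 genes lie on 7 chromosomes of GRCm38. Trem2 (ENSMUSG00000023992) spans chr17:48346401-48354147 on the plus strand with 5 exons, Tyrobp (ENSMUSG00000030579) chr7:30413760-30417585 on the plus strand and Cst7 (ENSMUSG00000068129) chr2:150570415-150578944 on the plus strand. Clec7a (ENSMUSG00000079293), annotated as a polymorphic pseudogene, spans chr6:129461591-129472779 on the minus strand, Gpnmb (ENSMUSG00000029816) chr6:49036546-49070929 on the plus strand and Cd9 (ENSMUSG00000030342) chr6:125460266-125494791 on the minus strand. Spp1 (ENSMUSG00000029304) spans chr5:104435118-104441050 on the plus strand, Lgals3 (ENSMUSG00000050335) chr14:47367751-47386160 on the plus strand and Ch25h (ENSMUSG00000050370), a gene of 1 exon, chr19:34473778-34475164 on the minus strand. Exonic bases of Spp1 are shared with Gm42793, those of Cd9 with Gm26728 and those of Ch25h with Gm26902, and reads there cannot be told apart, since the strand setting is not given in the sources used here.

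Injury was followed by a higher level of all 9 genes at both ages, 5.52-fold (Cd9) to 1004-fold (Gpnmb) in young and 6.68-fold (Cd9) to 192.2-fold (Gpnmb) in middle-aged mice, although Cd9 was lower and not higher once libraries were scaled to the pan-myeloid markers. Each of the 9 had an adjusted p under 0.05 by edgeR's quasi-likelihood test with Benjamini-Hochberg adjustment over all genes, against 28.3% of the genes tested called higher and 26.3% called lower in young mice, and 29.2% and 29.3% in middle-aged mice. Every injured pool stood above every naïve pool for each member at both ages, which held for 35% of genes in young and 31.5% in middle-aged mice. The median log2 fold change of the 9 was 6.11 in young and 4.78 in middle-aged mice, beside 0.00054 and −0.032 over all genes tested.

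**Figure D1:**
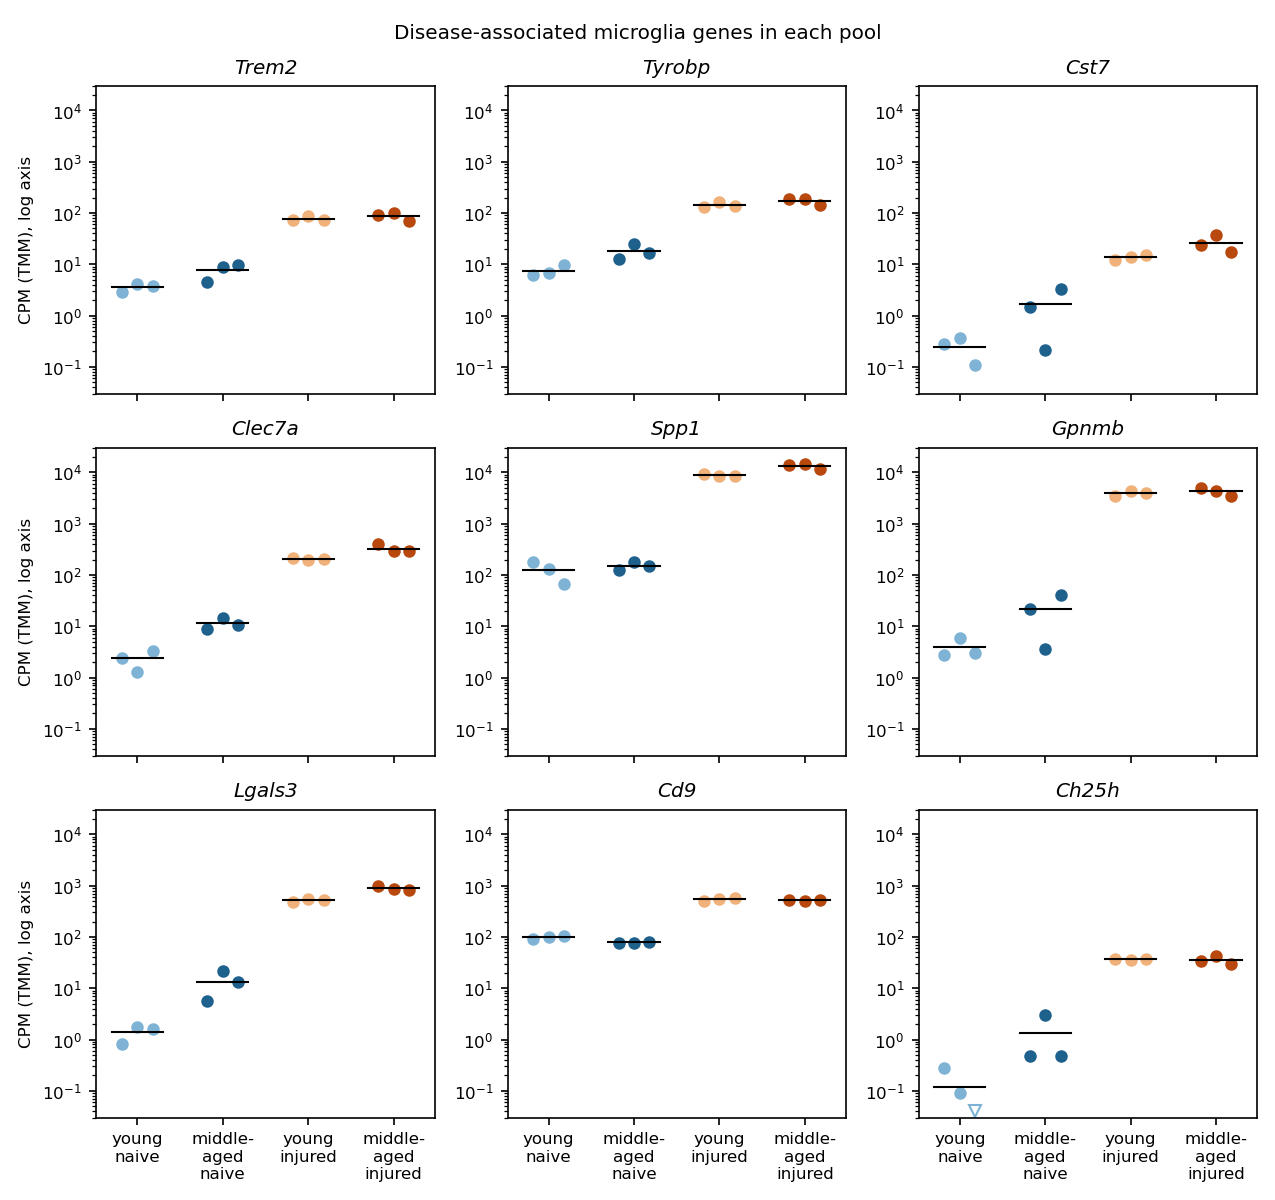
Level of each of the 9 genes in each of the 12 pools, as CPM on a log axis, in 4 groups of 3 pools, with the group mean as a line and a pool at 0 as an open triangle. Every injured pool lay above every naïve pool for each gene on this scale, from Cd9 (75.93 to 104.3 CPM naïve, 498.6 to 584.3 injured) to Gpnmb (2.733 to 40.01 naïve, 3531 to 4927 injured). In injured tissue Cd9 was lower per pan-myeloid marker RNA and higher per homeostatic microglia marker RNA.

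The receptor Trem2 was at 2.92, 4.17 and 3.76 CPM in young naïve pools 1 to 3 and at 4.61, 9.02 and 9.68 in middle-aged naïve pools. After injury it reached 72.8, 86.2 and 72.7 CPM in young and 91.1, 98.7 and 70.2 CPM in middle-aged pools. The 3 middle-aged naïve pools were all above the young naïve ones, and the injured groups overlapped. Trem2 rose by 4.41 ± 0.26 (log2 fold change ± SE, adjusted p = 5.72e-09) with injury in young and by 3.47 ± 0.24 (adjusted p = 2.24e-08) in middle-aged mice.

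Tyrobp, whose protein carries the TREM2 signal into the cell, was measured at 6.10, 6.89 and 9.68 CPM in young naïve and 12.7, 24.6 and 16.6 CPM in middle-aged naïve pools. Injured pools held 129.2, 167.7 and 134.8 CPM in young and 189.5, 190.8 and 143.8 CPM in middle-aged mice. The pattern over groups was that of Trem2, with naïve groups that did not overlap and injured groups that did. Tyrobp rose by 4.26 ± 0.25 (adjusted p = 5.72e-09) in young and by 3.29 ± 0.23 (adjusted p = 2.82e-08) in middle-aged mice. Scaled for exon length (RPKM, the CPM per kilobase of exon), Tyrobp RNA stood at a mean of 11.3 RPKM in young naïve and 216 in young injured pools, against 0.731 and 15.6 RPKM for Trem2.

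Most other genes listed for TREM2 signalling were higher in injured tissue too. Of 11 genes for ligands, sheddases and signalling steps, 10 rose and 1 fell at each age, with medians of 3.46 in young and 3.00 in middle-aged mice on the log2 scale. The 6 pan-myeloid markers had higher medians, 3.80 and 3.54, and 28.3% and 29.2% of all genes tested were called higher. Syk, the kinase that binds phosphorylated TYROBP, rose by 4.15 ± 0.36 in young mice, Btk by 4.29 ± 0.53 and the phospholipase Plcg2 by 3.46 ± 0.15. The gene that fell was Clu (−0.89 ± 0.13 in young mice), which encodes the lipoprotein clusterin and is expressed by astrocytes. Hcst, the gene of another adaptor, gave 1 count in all young naïve pools together and 34 in the injured ones, a ratio of 26.7 (95% exact interval of the counts 4.49 to 1090). Of 5 neighbouring receptor genes of the TREM cluster 4 could be tested, and all 4 rose at both ages, led in young mice by Treml2 at 6.44 ± 0.61. Trem1 was at 0 counts in every young naïve pool and was at least 6.03-fold higher after injury, taking 3 counts over the naïve group as the floor. Treml4 had the smallest fitted change of the 4 in young mice, with 3 counts in the naïve and 20 in the injured pools, a ratio of 5.24 (1.56 to 27.6). With genes at 0 in a naïve group set to that bound the median of the 4 was 2.81 in young and 4.51 in middle-aged mice.

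Clec7a encodes dectin-1, a C-type lectin receptor that signals through Syk and Card9. Its level was 2.46, 1.27 and 3.33 CPM in young naïve pools and 8.83, 14.8 and 10.5 CPM in middle-aged naïve pools. It stood at 212.8, 193.5 and 207 CPM in young injured and at 399.3, 294.6 and 289.5 CPM in middle-aged injured pools. The 4 groups did not overlap at any step, and the middle-aged group was the higher one in both conditions. Clec7a rose with injury by 6.46 ± 0.28 (adjusted p = 2.91e-10) in young and by 4.85 ± 0.24 (adjusted p = 1.08e-09) in middle-aged mice. Card9, its downstream adaptor, rose by 2.71 ± 0.67 and 2.62 ± 0.64.

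Spp1 encodes osteopontin, a secreted phosphoprotein that binds integrins and CD44, and was the most abundant member per exon length in all 4 groups, at 76.6 RPKM in young naïve, 91.2 in middle-aged naïve pools and, after injury, 5310 in young and 8139 in middle-aged pools. Young naïve pools gave 2002, 1442 and 611 counts and middle-aged naïve pools 1290, 1700 and 1860, and those groups overlapped. Injured pools gave 128223, 108147 and 112283 counts in young and 168808, 180893 and 136484 in middle-aged mice. Spp1 RNA took 0.890 to 1.02% of all counts in young injured and 1.21 to 1.49% in middle-aged injured pools, where it ranked 2 or 3 among all genes by counts. It rose by 6.11 ± 0.32 (adjusted p = 1.87e-09) in young and by 6.48 ± 0.32 (adjusted p = 1.24e-09) in middle-aged mice. Of 7 osteopontin receptor genes, 6 rose in young and 7 in middle-aged mice, with medians of 1.61 and 1.78. The highest in young mice was Itga4 at 2.91 ± 0.24, and Itgb3 at 0.46 ± 0.20 was not called there (adjusted p = 0.0684).

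Gpnmb, a transmembrane glycoprotein of lysosomes and melanosomes that MITF family factors induce, changed by the widest factor of the 9. It was counted 30, 65 and 28 times in young naïve pools, and 228, 35 and 500 times in middle-aged naïve pools, of which pool 2 stood among the young ones. Injured pools gave 48107, 56323 and 51908 counts in young and 59355, 54044 and 40935 in middle-aged mice. By counts Gpnmb ranked 10261 to 12018 among genes in young naïve pools and 9 to 14 in young injured pools. It rose by 9.97 ± 0.67 (adjusted p = 2.25e-08) in young and by 7.59 ± 0.59 (adjusted p = 8.19e-08) in middle-aged mice, and without middle-aged naïve pool 3 the latter was 8.37 (331-fold). Of the 4 MiT/TFE factors, Tfec and Tfe3 rose at both ages, Tfeb fell in young mice (−0.92 ± 0.30) and Mitf was not called (−0.13 in young, 0.13 in middle-aged). Tfec was at 0 counts in every young naïve pool and at least 70.5-fold higher after injury, and it went from 2 to 241 counts in middle-aged mice, a ratio of 108 (29.6 to 898). Tfe3 rose by 1.16 ± 0.14 and 1.04 ± 0.14, and the median of the 4 was 0.51 in young mice with Tfec at its bound and 0.59 in middle-aged mice. The call for Tfeb did not hold when libraries were scaled by their totals alone.

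Lgals3 encodes galectin-3, a lectin of phagocytes that is secreted and also gathers on damaged lysosomes. It gave 9, 19 and 15 counts in young naïve, 59, 205 and 167 in middle-aged naïve pools and, after injury, 6589, 7188 and 6835 in young and 11893, 10913 and 9709 in middle-aged pools. No 2 of the 4 groups overlapped, and the middle-aged group was higher in both conditions. Lgals3 rose by 8.55 ± 0.42 (adjusted p = 1e-09) in young and by 6.06 ± 0.34 (adjusted p = 3.61e-09) in middle-aged mice. Of 5 other galectin genes 4 rose at each age, with medians of 2.69 and 2.11, Lgals9 the most in young mice (3.76 ± 0.48), and Lgals4 (−0.90 ± 0.82) was not called.

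Cst7 encodes cystatin F, an inhibitor of cathepsins within the endosomes and lysosomes of leukocytes. Its counts were 3, 4 and 1 in young naïve, 15, 2 and 42 in middle-aged naïve pools and, after injury, 162, 176 and 202 in young and 289, 469 and 197 in middle-aged pools. With so few naïve counts its fold change is imprecise: counts per library size were 53.1-fold higher in young injured mice (95% exact interval 26.8 to 123.6) and 14.5-fold higher in middle-aged ones (11.2 to 19.2), intervals that cover counting error only. The fitted log2 changes were 5.68 ± 0.67 (adjusted p = 5.44e-06) and 3.90 ± 0.51 (adjusted p = 1.26e-05), the latter 4.94 (30.7-fold) without middle-aged naïve pool 3. Of 8 cystatins and cathepsin targets, 6 rose and 1 fell at each age, with medians of 3.54 and 3.29. Ctsc, which encodes cathepsin C, a protease that cystatin F inhibits, rose the most in young mice (4.98 ± 0.18), and Cst3, encoding cystatin C of most cells, fell (−0.43 ± 0.16), a call that did not hold with libraries scaled by totals alone.

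Cd9 encodes a tetraspanin of the cell surface and was the member with the highest naïve level after Spp1 per exon length, at 47.9 RPKM in young and 38.3 in middle-aged naïve pools. Its levels were 91.7, 97.8 and 104.3 CPM in young naïve, 75.9, 77.5 and 81.4 in middle-aged naïve pools and, after injury, 498.6, 538.7 and 584.3 in young and 533, 501.1 and 534.1 in middle-aged pools. Cd9 alone among the 9 was lower in every middle-aged naïve pool than in every young one. That difference was not called (−0.32 ± 0.10, adjusted p = 0.102), and the share of all genes lower in this way was not computed. It rose with injury by 2.47 ± 0.11 (adjusted p = 2.91e-10) and 2.74 ± 0.11 (adjusted p = 1.47e-10), the smallest changes of the list at both ages on this scale. Of 6 other tetraspanins 3 rose and 3 fell at each age, from Cd53, a leukocyte tetraspanin (5.50 ± 0.16 in young mice), to Tspan2, which is expressed by oligodendrocytes (−2.20 ± 0.17). Their medians were 0.20 and 0.014, and the fall of Cd81 (−0.46 ± 0.10 in young mice) did not hold with totals alone.

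Ch25h makes 25-hydroxycholesterol, an oxysterol that restrains cholesterol synthesis. It gave 3, 1 and 0 counts in young naïve, 5, 29 and 6 in middle-aged naïve pools and, after injury, 508, 461 and 501 in young and 405, 522 and 346 in middle-aged pools. The naïve values were at or near the floor of 3 counts in young mice, and the injured groups overlapped. Summed per group and scaled to library size, the counts were 289.1-fold higher after injury in young (95% exact interval 112.7 to 1062) and 28.6-fold higher in middle-aged mice (20.9 to 40.2), and these intervals leave out the spread between pools. The fitted log2 changes were 8.06 ± 0.64 (adjusted p = 1.11e-07) and 4.78 ± 0.47 (adjusted p = 7.65e-07). They were 9.27 without young naïve pool 1 and 6.16, or 71.7-fold, without middle-aged naïve pool 2, which held most of the counts of its group. Of 6 genes that make, use or answer to oxysterols, 3 rose at both ages, namely Gpr183 (3.20 ± 0.25 in young mice), the receptor of a product of 25-hydroxycholesterol, Soat1 (2.56 ± 0.11), which stores cholesterol as esters, and Hsd3b7 (1.05 ± 0.26). The sterol hydroxylases Cyp27a1 (−2.14 ± 0.20) and Cyp46a1 (−1.24 ± 0.34) fell at both ages, and Cyp7b1 fell in middle-aged mice (−0.84 ± 0.24) and was at −0.47 ± 0.24 in young mice (adjusted p = 0.11). The call for Cyp46a1 in middle-aged mice did not hold with DESeq2-type size factors or totals alone, and the medians of the 6 were 0.29 and 0.17.

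Together the 9 genes took 0.0181 to 0.0272% of counts in young naïve, 0.0248 to 0.0316% in middle-aged naïve pools and, after injury, 1.50 to 1.56% in young and 1.77 to 2.20% in middle-aged pools. Spp1 made up 58.5 to 65.4% of the members' counts in young injured and 66.1 to 69.5% in middle-aged injured pools. Within the middle-aged injured group, pool 3 was the lowest for 8 members and the highest for Cd9. Within the middle-aged naïve group, pool 1 was the lowest for 7 members, and pool 2 for Cst7 and Gpnmb.

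**Figure D2:**
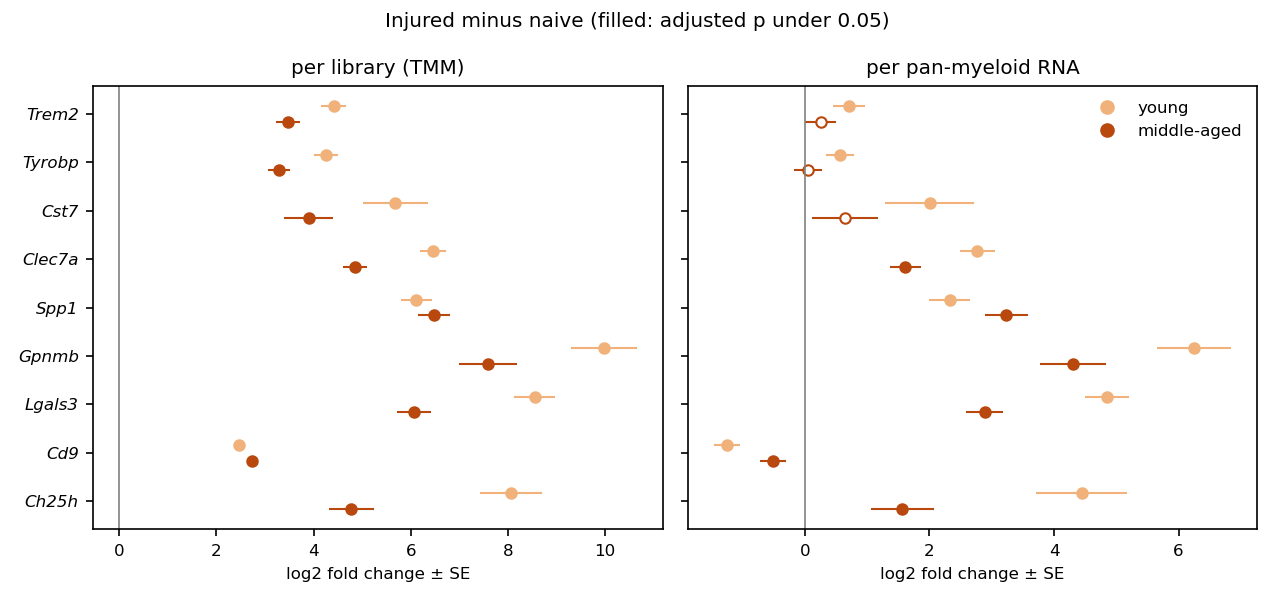
Log2 fold change with injury of each of the 9 genes in young and in middle-aged mice, with error bars of 1 SE, from the fit on TMM-scaled libraries (left) and on libraries scaled to 6 pan-myeloid markers (right), with filled points for an adjusted p under 0.05. All 18 changes lay above 0 with TMM scaling, and with pan-myeloid scaling Cd9 lay below 0 at both ages (−1.25 and −0.51).

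Since pan-myeloid markers rose with injury, the members were also set against them, by scaling each library to the mean log count of the 6 markers. These 6 all rose at both ages, with medians of 3.80 in young and 3.54 in middle-aged mice, and most genes were called lower on this scale: 2.07% of genes were called higher and 91.9% lower in young mice, and 2.75% and 91% in middle-aged mice. In young mice 8 members were called higher and Cd9 lower, with a median of 2.33 over the 9 beside −3.71 over all genes. In middle-aged mice 5 were called higher (Clec7a, Spp1, Gpnmb, Lgals3 and Ch25h) and Cd9 lower, with a median of 1.57 beside −3.29. With libraries scaled to the 10 homeostatic microglia markers instead, all 9 members were called higher at both ages, so the counts depended on the reference. The share of all genes called on that scale is not given here, so this count has no background beside it. Of those 10 markers, 7 rose and 1 fell in young and 5 rose and 2 fell in middle-aged mice. Leaving out 1 pool at a time gave 7 to 9 calls per pan-myeloid RNA in young and 5 to 7 in middle-aged mice. In young mice the call was lost for Trem2 without young injured pool 2, for Tyrobp without young naïve pool 1, young naïve pool 2 or young injured pool 2, and for Cst7 without young naïve pool 3 (1.56, adjusted p = 0.0722). In middle-aged mice that of Cd9 was lost without middle-aged naïve pool 1 or middle-aged injured pool 1 or 2, and Cst7 was called without middle-aged naïve pool 3 (1.51, adjusted p = 0.0252).

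Gpnmb had the largest change relative to the pan-myeloid markers at both ages, followed by Lgals3 in young and Spp1 in middle-aged mice. Per unit of marker RNA (the member's count over the geometric mean count of the 6 markers in the same pool), Gpnmb averaged 0.642 in young naïve, 2.22 in middle-aged naïve pools and, after injury, 48.7 in young and 44.0 in middle-aged pools, and the log2 changes with injury were 6.25 (adjusted p = 3.47e-09) and 4.30 (adjusted p = 1.7e-07). Lgals3 averaged 0.221, 1.26, 6.42 and 9.38, with changes of 4.85 (adjusted p = 5.64e-11) and 2.89 (adjusted p = 9.59e-09). Spp1 averaged 21.7, 14.8, 108.8 and 139.3, with changes of 2.33 (adjusted p = 1.2e-06) and 3.23 (adjusted p = 1.99e-08). Trem2 and Tyrobp changed less relative to these markers: Tyrobp averaged 1.2 ± 0.0752 (SD, n = 3) in young naïve, 1.74 ± 0.347 in middle-aged naïve pools and, after injury, 1.78 ± 0.216 in young and 1.80 ± 0.0331 in middle-aged pools. The changes of Trem2 were 0.71 ± 0.26 (adjusted p = 0.0152) in young and 0.26 ± 0.25 (adjusted p = 0.33) in middle-aged mice, and those of Tyrobp 0.57 ± 0.23 (adjusted p = 0.0234) and 0.05 ± 0.22 (adjusted p = 0.823). Cd9 fell from 15.9 ± 1.85 to 6.69 ± 0.267 per unit in young mice (−1.25 ± 0.21, adjusted p = 1.39e-05) and from 7.86 ± 1.42 to 5.50 ± 1.06 in middle-aged mice (−0.51 ± 0.21, adjusted p = 0.0268). Scaled to the homeostatic microglia markers instead, Trem2 rose by 2.48 in both young (adjusted p = 8.5e-08) and middle-aged mice (adjusted p = 1.54e-07) and Tyrobp by 2.33 (adjusted p = 2.57e-08) and 2.31 (adjusted p = 6.21e-08). On that scale Cd9 rose by 0.52 (adjusted p = 0.013) and 1.71 (adjusted p = 8e-07), so its direction depended on the reference.

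Age was compared next, first in naïve tissue, where 5 of the 9 members were higher in middle-aged mice and none was called lower. Lgals3 was 9.70-fold higher (log2 3.28 ± 0.42, adjusted p = 0.000978), Gpnmb 5.66-fold (2.50 ± 0.57, adjusted p = 0.0286), Clec7a 4.87-fold (2.28 ± 0.28, adjusted p = 0.000785), Tyrobp 2.38-fold (1.25 ± 0.24, adjusted p = 0.0115) and Trem2 2.15-fold (1.11 ± 0.26, adjusted p = 0.035). In this comparison 2.02% of genes tested were called higher and 1.78% lower, and the median log2 change was 2.28 over the members and 0.013 over all genes. Every middle-aged naïve pool stood above every young one for Trem2, Tyrobp, Clec7a, Lgals3 and Ch25h, which held for 7.77% of genes. The 4 members not called were Ch25h (3.21 ± 0.89, adjusted p = 0.062), Cst7 (2.73 ± 0.79, adjusted p = 0.075), Cd9 (−0.32 ± 0.10, adjusted p = 0.102) and Spp1 (0.25 ± 0.26, adjusted p = 0.649). Even after this difference the naïve levels were low, since Lgals3 averaged 13.5 ± 7.92 CPM (SD, n = 3) in middle-aged naïve against 518.5 ± 36.9 in young injured pools.

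The age comparison in naïve tissue depended on single pools and on the test. Calls numbered 2 without young naïve pool 1, 2 without young naïve pool 2 and 3 without young naïve pool 3, and the range over all left-out pools was 2 to 6. DESeq2 called 8 members, 7 higher and Cd9 lower, and a fit of the naïve pools alone called 2 (Clec7a and Lgals3). The shares of all genes called under these settings are not given here, and the shares above belong to the main fit. Clec7a and Lgals3 were called under each of 20 alternative settings, while Trem2 lost its call in 10, Gpnmb in 6 and Tyrobp in 3. Among single pools left out, Trem2 lost it without any 1 of young naïve pools 1 to 3, middle-aged naïve pools 2 and 3, young injured pools 1 to 3 or middle-aged injured pool 1 (adjusted p up to 0.129), and Tyrobp without young naïve pool 1 or 2. Gpnmb lost it without any 1 of the young naïve pools and without middle-aged naïve pool 3, where it was 1.72 (3.29-fold, adjusted p = 0.08). Ch25h gained a call without middle-aged naïve pool 1 or 3 and Cst7 without middle-aged naïve pool 2. Markers of cells moved with age in the same pools: 3 of 6 pan-myeloid markers rose (Itgam 1.12, Ptprc 1.17, Laptm5 0.70), 4 of 10 homeostatic microglia markers rose (among them Cx3cr1 0.64, Gpr34 0.99 and Siglech 1.13), and 3 of 6 oligodendrocyte markers fell (among them Mog −0.93 and Cnp −0.77). Among 9 monocyte markers tested F13a1 (1.65) and Ccr2 (0 counts in young, 1 to 11 in middle-aged pools) rose and Itga4 (−1.14) fell, the last not with totals alone. The mitochondrial rRNA gene mt-Rnr2 took 13.9 to 15.4% of counts in middle-aged and 9.9 to 12.4% in young naïve pools. The part of these differences in the result was not tested.

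Relative to the pan-myeloid markers, a comparison added after the data were seen, 5 members were higher in middle-aged naïve tissue and 1 lower, against 0.857% of genes higher and 42.7% lower. The 5 were Lgals3 (2.52, adjusted p = 0.000224), Ch25h (2.55, adjusted p = 0.0235), Cst7 (2.02, adjusted p = 0.0376), Gpnmb (1.80, adjusted p = 0.015) and Clec7a (1.58, adjusted p = 0.00179), and the lower one was Cd9 (−1.02, adjusted p = 0.00382). Trem2 (0.35, adjusted p = 0.276) and Tyrobp (0.54, adjusted p = 0.0654) were not called on this scale. Pools of Ch25h, Cst7 and Gpnmb overlapped between the ages on this scale. The call for Ch25h was lost without young naïve pool 2 or 3 or middle-aged naïve pool 2 (1.26, adjusted p = 0.201), that for Cst7 without any 1 of the young naïve pools or middle-aged naïve pool 3 (1.16, adjusted p = 0.261), and that for Gpnmb without young naïve pool 1 or middle-aged naïve pool 3 (1.23, adjusted p = 0.0972). Tyrobp was called without middle-aged naïve pool 1 (0.60, adjusted p = 0.0423), and Spp1 was called lower without young naïve pool 3 (−0.93, adjusted p = 0.00369). A fit of the naïve pools alone did not call Cst7 or Ch25h. Without Laptm5 and Ptprc among the markers 3 members were called, all higher (Clec7a, Gpnmb and Lgals3). The share of all genes called in that fit is not given here.

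**Figure D3:**
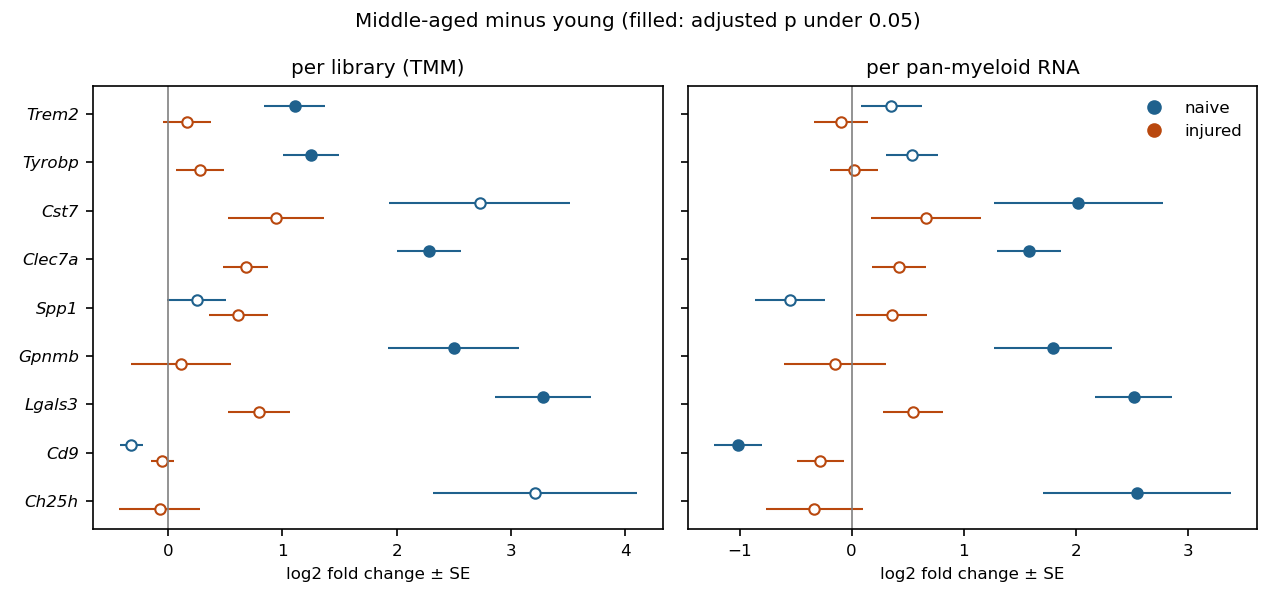
Log2 difference of middle-aged minus young mice for each of the 9 genes, in naïve and in injured tissue, with error bars of 1 SE and filled points for an adjusted p under 0.05, on TMM-scaled libraries (left) and per pan-myeloid marker RNA (right). On the left 5 genes were called higher in naïve tissue and none in injured tissue, where the values ran from −0.07 (Ch25h) to 0.95 (Cst7), and on the right Cd9 was called lower in naïve tissue (−1.02).

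In injured tissue no member was called for age, against 0.24% of genes called higher and 0.908% lower. At an unadjusted p under 0.05 there were 4 members, all higher, beside 3.18% of genes higher and 6.45% lower, and DESeq2 called 1 (Clec7a). Every middle-aged injured pool stood above every young injured one for Cst7 (0.95 ± 0.42, adjusted p = 0.478), Lgals3 (0.79 ± 0.27, adjusted p = 0.246), Clec7a (0.68 ± 0.20, adjusted p = 0.141) and Spp1 (0.62 ± 0.25, adjusted p = 0.401), which held for 11.1% of genes. As folds these were 1.93, 1.73, 1.60 and 1.53. The other 5 members had differences of −0.07 to 0.28 with overlapping pools. The median was 0.28 over the members and 0.0022 over all genes. Leaving out middle-aged naïve pool 1 gave 1 call (Lgals3, adjusted p = 0.0277), and leaving out middle-aged naïve pool 2 gave 2 (Clec7a, adjusted p = 0.039, and Lgals3, adjusted p = 0.0379), although neither pool belongs to the groups compared. A fit of the injured pools alone called the 4 that did not overlap, and one without the filter on low counts called 3 (Clec7a, Spp1 and Lgals3). The shares of all genes called by DESeq2, by these fits and with pools left out are not given here. Of the oligodendrocyte markers 5 of 6 were lower in middle-aged injured tissue, and the part of this in the result was not tested. Per pan-myeloid marker RNA no member was called (0.0315% of genes higher, 0.908% lower), also by DESeq2, and the median was 0.019.

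The injury effects at the 2 ages were then compared: the estimate was lower in middle-aged mice for 7 of the 9 members, but the difference was called for none, against 0.0567% of genes higher and 0.0819% lower. At an unadjusted p under 0.05 there were 6 members, all lower, beside 3.83% of genes higher and 6.09% lower, and DESeq2 called 2 (Clec7a and Lgals3). The differences (middle-aged minus young, log2) ran from −3.29 ± 0.97 (Ch25h, adjusted p = 0.212) through −2.49 ± 0.51 (Lgals3, adjusted p = 0.0793), −2.39 ± 0.72 (Gpnmb, adjusted p = 0.227) and −1.60 ± 0.35 (Clec7a, adjusted p = 0.0978) to 0.27 ± 0.14 (Cd9, adjusted p = 0.565) and 0.37 ± 0.36 (Spp1, adjusted p = 0.808). Trem2 (−0.94 ± 0.34, adjusted p = 0.334), Tyrobp (−0.97 ± 0.32, adjusted p = 0.274) and Cst7 (−1.78 ± 0.92, adjusted p = 0.563) lay between. The median was −1.60 over the members and −0.046 over all genes. It was −0.92 over the 10 homeostatic microglia markers and −0.61 over the 6 pan-myeloid markers, with no call in either list. Per pan-myeloid marker RNA no member was called, and the median was −1.16 over the members beside 0.42 over all genes. These differences share their naïve and injured pools with the age comparisons above and add no independent observation. Without middle-aged naïve pool 1 Lgals3 was called (−2.85, adjusted p = 0.00485), without middle-aged naïve pool 2 Gpnmb (−2.87, adjusted p = 0.00711), and without the filter on low counts 5 members were called, namely Tyrobp, Clec7a, Gpnmb, Lgals3 and Ch25h. The shares of all genes called under these settings and by DESeq2 are not given here. Single naïve pools also moved uncalled values: without middle-aged naïve pool 3 Gpnmb was −1.60 (adjusted p = 0.325) and Cst7 −0.74 (adjusted p = 0.791). Ch25h was −1.90 (adjusted p = 0.273) without middle-aged naïve pool 2 and −4.49 (adjusted p = 0.284) without young naïve pool 1.

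Another 13 genes of the disease-associated signature, apart from the 9, could be tested, and they moved with injury in the same way for the most part. In young mice 12 rose and 1 fell (median 3.33), and in middle-aged mice 11 rose and 1 fell (median 3.48). Lyz2, the lysozyme of myeloid cells, rose the most in young mice (8.15 ± 0.20), followed by the integrin Itgax (5.61 ± 0.68), the lysosomal protease Ctsd (4.71 ± 0.21) and the chemokine Ccl6 (4.65 ± 0.29). Fth1, the ferritin heavy chain, fell (−1.15 ± 0.14). With age in naïve tissue 4 rose, namely Lyz2 (2.15), Lpl (0.85), Ctsd (0.72) and Apoe (0.61). With age in injured tissue Ccl6 (1.48, adjusted p = 0.00921) and Ctsl (0.65, adjusted p = 0.0448, not with totals alone) rose. The injury effect of Lyz2 was smaller in middle-aged mice (−1.89, adjusted p = 0.00275).

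The other lists showed few calls for age. In naïve tissue Ctss (0.99) and Ctsh (0.88) rose among the cathepsins, Adam17 (−0.60), Itgb1 (−0.52), Cd81 (−0.50) and Tspan2 (−1.07) fell, and no gene of the galectin, oxysterol, MiT/TFE or TREM cluster lists was called. Flt1, an endothelial receptor, rose (0.53). In injured tissue Tspan2 (−1.11), the astrocyte connexin Gja1 (−0.78, adjusted p = 0.00524) and the fibroblast collagen Col1a1 (−1.92, adjusted p = 0.0107) fell. With injury, 9 of 9 monocyte markers tested rose at both ages, and F13a1 rose less in middle-aged mice (difference −1.70). Homeostatic microglia markers split, with 7 higher and 1 lower in young and 5 higher and 2 lower in middle-aged mice, where Siglech (−1.51) and Sall1 fell. All 6 oligodendrocyte markers fell at both ages. Neutrophil markers rose in 2 of 3 tested in young and 3 of 3 in middle-aged mice, dendritic cell markers in 3 of 5 at both ages with 1 lower, and fibroblast markers in 4 of 4. Astrocyte markers fell in 4 of 5 at both ages, neuron markers in 3 of 5 in young and 4 of 5 in middle-aged mice with 1 higher, and endothelial markers rose in 2 of 4 with 1 lower in middle-aged mice. None of the 6 lymphocyte markers passed the filter.

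**Figure D4:**
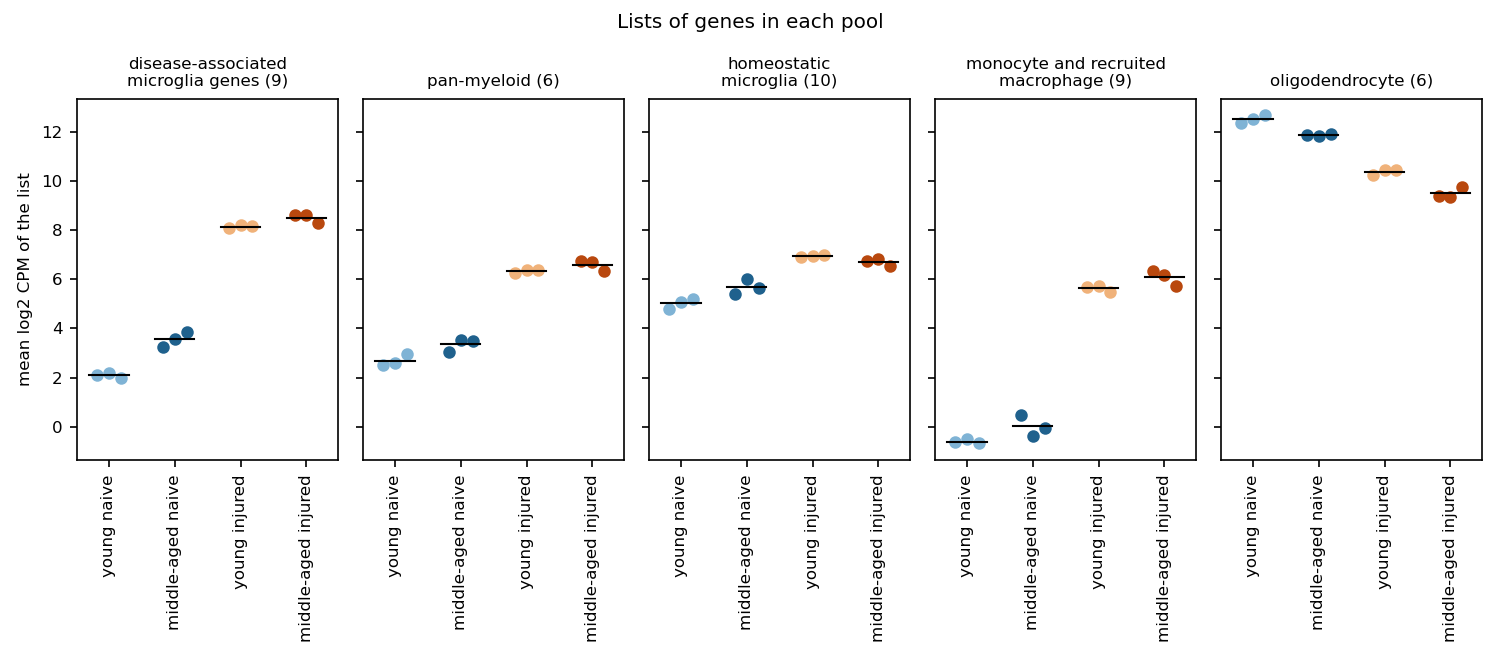
Mean log2 CPM of the 9 members and of 4 marker lists in each of the 12 pools, by group, with a line at the group mean. The members went from 2.0 to 2.2 in young naïve and 3.27 to 3.85 in middle-aged naïve pools to 8.07 to 8.19 and 8.29 to 8.63 after injury, the homeostatic microglia markers from 4.78 to 5.20 and 5.41 to 6.02 to 6.92 to 7.01 and 6.55 to 6.82, and the oligodendrocyte markers fell.

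Of all genes with a mean log2 CPM of at least 1, the 5 whose log2 CPM followed the mean of the 9 members most closely over the 12 pools were Tnfrsf1b (Pearson's r 0.9992), Itgb2 (0.9989), Capg (0.9987), Mpeg1 (0.9985) and Igsf6 (0.9985). They encode a TNF receptor, an integrin chain of leukocytes, an actin-capping protein, a perforin-like protein of macrophages and an immunoglobulin-family receptor of myeloid cells. Their log2 changes with injury were 5.12 (Itgb2) to 5.93 (Mpeg1) in young and 4.26 (Tnfrsf1b) to 5.18 (Mpeg1) in middle-aged mice. The members themselves had r of 0.955 (Cst7) to 0.995 (Trem2) with that mean, of which each is a part. These values describe 12 pools that share 1 large step between naïve and injured tissue.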

How the data were processed

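RNA of 12 pools was sequenced, and the authors deposited a table of raw counts of reads per gene. Per the labels and the submitters' processing notes, reads were checked with FastQC 0.11.4, mapped to GRCm38 with TopHat2 2.0.10 and Bowtie 1.1.2 and counted with featureCounts; the annotation release and strand setting are not given in the sources used here. Group and replicate number came from the sample labels. The 9 members and all lists were chosen with earlier results of these data known.

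The quasi-likelihood F test of edgeR 4.0.16 was run on the deposited counts in R 4.3.3, after filterByExpr and TMM normalisation, with 1 coefficient per group over all 12 pools. Benjamini-Hochberg adjustment covered 15866 genes, and an adjusted p under 0.05 was a call. SEs were derived as the size of the log2 fold change over √F. A prior count of 2 was used for log2 CPM, and the floor of detection was 3 counts. In a second fit, libraries were scaled to the mean log count of 6 pan-myeloid markers (pseudocount 0.5). RPKM used exon lengths of the annotation. Count ratios carry 95% exact binomial intervals. Named were all members, the highest and lowest gene of each list in young injury, those called for age, and the 5 genes most like the members' mean. Values of some marker genes are not reported here. Steps were tested on simulated data.

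Alternatives were DESeq2 1.42.0, other scalings and filters, only the pools compared, the replicate number as a block and each pool left out.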

Additional observations from a re-analysis of the deposited data

How the results depend on the processing

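All 9 members were called higher with injury at both ages under each of 20 alternative settings. For age in naïve tissue, 5 calls became 8 with DESeq2, 2 with only the pools compared and 2 to 6 when 1 pool was left out. For age in injured tissue, 0 calls became 3 without a filter, 1 with DESeq2, 4 with only the pools compared and 0 to 2 with 1 pool left out. For the difference of the injury effects, 0 calls became 5 without a filter, 2 with DESeq2 and 0 to 1 with 1 pool left out. Per pan-myeloid RNA, age in injured tissue gave 1 call with only the pools compared, and age in naïve tissue 3 in place of 6 without Laptm5 and Ptprc as markers. The cause of these changes was not tested, and the shares of all genes called under the alternative settings are not given here. Cst7 and Ch25h gave no value with only the naïve pools compared on TMM-scaled libraries.

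With 1 pool left out, some uncalled values changed sign: Spp1 for age in naïve tissue (−0.060 to 0.61), Cd9 and Ch25h for age in injured tissue (−0.095 to 0.024 and −0.21 to 0.043), and per pan-myeloid RNA Tyrobp for middle-aged injury (−0.046 to 0.23) and for age in injured tissue (−0.046 to 0.12, and −0.0075 without Laptm5 and Ptprc). Scaled to the homeostatic microglia markers in place of the pan-myeloid ones, 9 members were called higher with injury at both ages, Cd9 turned to 0.52 in young and 1.71 in middle-aged injury, and for age in injured tissue Trem2 turned to 0.41, Gpnmb to 0.36, Cd9 to 0.22 and Ch25h to 0.17. The share of all genes called on that scale is not given here.

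The replicate numbers did not pair the pools: deviations of 18 same-numbered pairs correlated at −0.113 to 0.153, 36 other pairs at −0.174 to 0.172, and 5 of 12 pools correlated best with their own number. With the replicate block, 9 and 9 members were called for injury, 4 for age in naïve tissue (Gpnmb 2.40, adjusted p = 0.0517) and 0 for age in injured tissue.

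Scaling by library totals alone moved the median of all genes by 0.20 in young injury. Depth limits Cst7 and Ch25h, whose naïve counts were 0 to 42 per pool.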
